A study of Homo sapiens with 6 samples.

Results

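FBXW7 (NCBI Gene 55294), the gene of an F-box protein with WD40 repeats, was examined together with its transcripts in the deposited table in COV434 cells exposed to 4HC. The gene is 1 of 16798 coding genes in the deposited gene table, and 13 of the 79213 deposited transcripts belong to it. It was taken because it showed the largest rise among the hub genes that the study had selected on these same samples, with a log2 fold change of 0.67 (SE 0.061), so its own values in this contrast are given as a description without a test. The next hub gene, HMOX1, which encodes heme oxygenase 1, had a log2 fold change of 0.53 (SE 0.066).

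Bulk RNA sequencing had been performed on 6 samples of COV434 cells, a human line labelled as wild-type and as granulosa cells (GCs). Of these, 3 were controls and 3 had been exposed to 15 µM 4HC, the pharmacologically active form of cyclophosphamide (CTX), for 24 h, the time the treatment protocol gives. The total of expected counts, the estimated number of reads from each gene, was between 16133786 and 16702316 per sample. All samples come from 1 cell line, and nothing in the labels says that replicates were separate cultures, so p-values measure the spread between these samples, which may be technical. Of 11 granulosa markers 3 had enough counts for a test, among them AMH at 3.8 to 6.53 CPM (counts scaled to library size, normalized by the TMM method), while FOXL2 stayed at or below 0.185 CPM and FSHR and CYP19A1 at or below 0.0615 CPM in every sample. The granulosa markers summed to 17.3 to 24.0 CPM in controls and 19.8 to 20.9 CPM in 4HC. Most of this sum was HSD17B1, with means of 14.2 CPM in controls and 14.1 CPM in 4HC. Markers of other ovarian and blood cell types, mainly DCN and LUM, summed to 127 to 136 CPM in controls and 128 to 136 CPM in 4HC, and their part in the results was not tested.

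FBXW7 is the substrate receptor of an SCF ubiquitin ligase. Its F-box binds SKP1, which links it to the scaffold CUL1 and the RING protein RBX1, and its WD40 repeats bind phosphorylated degrons in substrates such as cyclin E, MYC, JUN and NOTCH1, which are then marked for the proteasome. The gene encodes 3 protein isoforms that share these domains and differ at the amino terminus. Alpha resides in the nucleoplasm, beta in the cytoplasm and gamma in the nucleolus.

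In the deposited table FBXW7 spans positions 152320355 to 152536873 of chromosome 4 (band 4q31.3, GRCh38). The GENCODE 29 models of the same build place it on the minus strand. The alpha model has 12 exons and the beta and gamma models have 11. The start of alpha lies 183.1 kb upstream of the start of beta and 153.5 kb upstream of that of gamma. All 3 proteins share 10 coding exons with 1620 coding bases, to which alpha adds 501 bases of its own, beta 261 and gamma 147. Isoform-specific sequence thus makes up 23.6% of the coding sequence of alpha, 13.9% of that of beta and 8.32% of that of gamma. These stretches alone tell the coding parts of the isoforms apart, and they are shown for the transcripts that carried most of the reads, NM_033632 (alpha) and NM_018315 (beta). The opening 300 coding bases of alpha lie in exon 2 (chr4:152411504-152411803, minus strand), and all 261 specific bases of beta lie in its exon 1 (chr4:152352470-152352730, minus strand). Capitals mark the start codon.
alpha: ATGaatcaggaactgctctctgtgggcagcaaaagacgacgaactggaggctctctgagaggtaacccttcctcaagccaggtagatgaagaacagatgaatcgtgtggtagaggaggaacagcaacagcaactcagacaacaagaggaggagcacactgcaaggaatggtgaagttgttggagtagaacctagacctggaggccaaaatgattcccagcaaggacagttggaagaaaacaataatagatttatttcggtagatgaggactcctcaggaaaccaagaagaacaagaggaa
beta: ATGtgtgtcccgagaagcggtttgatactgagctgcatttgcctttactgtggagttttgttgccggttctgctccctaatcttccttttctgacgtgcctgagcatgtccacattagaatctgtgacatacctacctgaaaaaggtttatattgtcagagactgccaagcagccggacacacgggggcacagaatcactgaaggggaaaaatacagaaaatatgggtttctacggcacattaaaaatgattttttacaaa

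**Figure D1:**
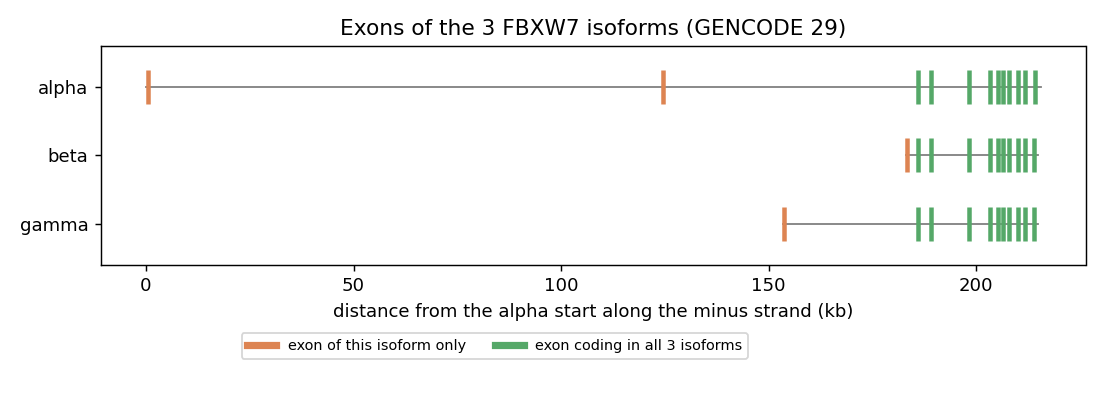
Exon positions of the alpha, beta and gamma models of FBXW7 in GENCODE 29, as distance in kb from the alpha start along the minus strand. Each vertical mark is an exon at its midpoint, drawn at a fixed width that does not follow its length, in orange for exons of 1 isoform and in green for the 10 exons coding in all 3. The beta start stands 183.1 kb from the alpha start, close to the shared exons.

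The starts also differ in base composition. In windows from 250 bases before to 50 bases after the RefSeq starts (GRCh38.p14), the alpha window had a GC content of 70% with 30 CpG dinucleotides, the beta window 48.7% with 6 CpG and the gamma window 37.7% with 0 CpG. The medians over all 35116 windows of the RefSeq table were 58.7% and 14 CpG. The bases just before the annotated starts of beta are shown because its transcript rose more than that of alpha (chr4:152352972-152353076, minus strand, CpG in capitals).
beta upstream: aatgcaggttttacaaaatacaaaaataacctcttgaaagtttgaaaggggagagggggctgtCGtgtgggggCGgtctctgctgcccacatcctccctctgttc
The p53 consensus decamer, which reads the same on both strands, had no match in any of the 4 FBXW7 windows, and 6.63% of all windows held at least 1. No match says only that these letters are absent from these 300 bases.

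At the level of the gene, the CPM of FBXW7 was 25.4, 25.8 and 23.6 in the controls and 37.9, 39.8 and 41.2 in 4HC. All 3 treated samples lay above all controls, and the means were 24.9 ± 1.19 and 39.6 ± 1.65 CPM (SD, n = 3 each), a 1.59-fold difference. Of the 12368 genes tested, 45.3% had groups that did not overlap, 23.4% with 4HC on the upper side, so separation by itself was common. A log2 fold change above that of FBXW7 was found in 340 genes (2.75%). The counts behind these values were 412, 420 and 391 in the controls and 628, 645 and 673 in 4HC. Per length, FBXW7 ranked 8010 among the 16798 genes by control level, with 9.68 ± 0.344 TPM (the deposited abundance scaled to transcript length and library total) in controls and 15.6 ± 0.901 TPM in 4HC, and 42 of the 65 other F-box genes had a higher control TPM. In bulk RNA, a change in the number of cells that express a gene and a change in RNA per cell cannot be told apart.

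Among the transcripts, the increase lay mainly in NM_018315 (beta). NM_018315 had an expected count of 90.0, 58.4 and 46.0 in the controls and of 189.0, 235.6 and 251.2 in 4HC. Its level was 5.55, 3.6 and 2.77 CPM in the controls and 11.4, 14.5 and 15.4 CPM in 4HC. The lowest treated sample was thus above the highest control, and the means were 3.97 ± 1.43 and 13.8 ± 2.09 CPM (n = 3 each), 3.47-fold apart (log2 ratio 1.79). NM_033632, the alpha transcript and the most abundant in every sample, had 13.2, 14.6 and 12.8 CPM in the controls and 17.2, 18.3 and 18.4 CPM in 4HC. Its groups did not overlap either, with means of 13.5 ± 0.957 and 17.9 ± 0.658 CPM, 1.33-fold apart (log2 ratio 0.41). Groups that do not overlap with 4HC on the upper side were found in 9.6% of the 47252 transcripts with a mean of at least 10 counts in either group.

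Of the rise of 14.7 CPM in the whole gene, 9.8 CPM (66.7%) came from NM_018315 (beta) and 4.41 CPM (30.1%) from NM_033632 (alpha). Which isoform each of the other transcripts encodes was not examined. Beta and alpha therefore stand for these single transcripts, here and below, and not for isoform totals. With beta left out, the other 12 transcripts together had 21.0 ± 1.21 CPM in controls and 25.9 ± 0.626 CPM in 4HC (1.23-fold, no overlap). The 9 transcripts that are predicted RefSeq models summed to 7.37 ± 0.624 CPM in controls and 7.8 ± 1.23 CPM in 4HC, and these groups overlapped.

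**Figure D2:**
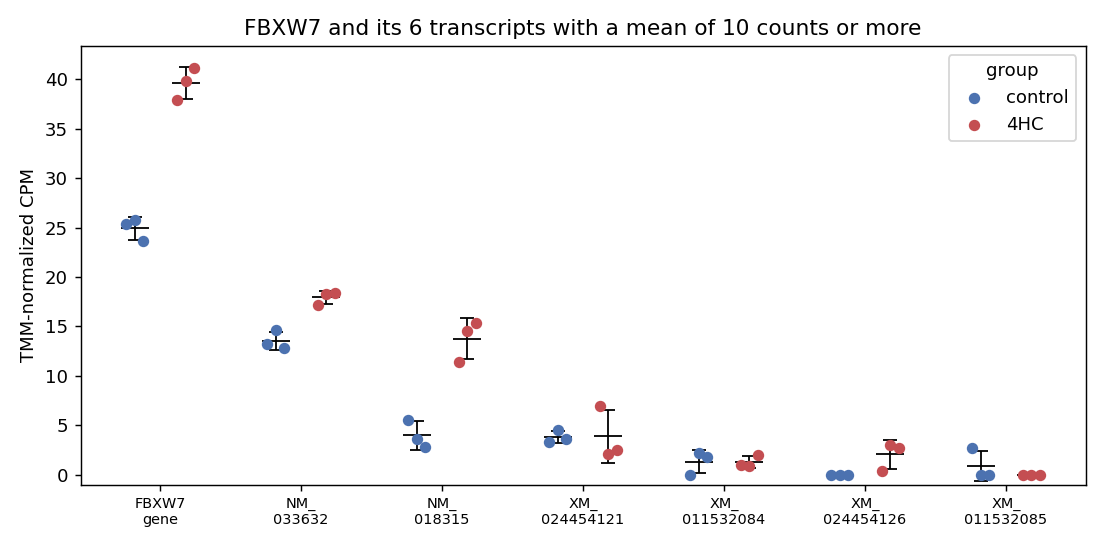
TMM-normalized CPM of FBXW7 and of its 6 transcripts with a mean of at least 10 counts in either group. Points are samples, and bars give the mean and SD of 3 controls (blue) or 3 4HC samples (red). The gene, NM_033632 (alpha) and NM_018315 (beta) separate into lower control and higher 4HC points. Of these, NM_018315 shows the widest relative gap, from a mean of 3.97 to 13.8 CPM.

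In the make-up of FBXW7, the share of beta was higher in 4HC, and the shares of alpha and of the predicted models were lower. The share of a transcript is its TPM divided by the summed TPM of the 13 FBXW7 transcripts, and so takes length into account. The gamma transcript NM_001013415 is not part of this total, and where its reads from the shared exons were counted was not tested. Beta held 22.1%, 13.9% and 11.6% in the controls and 30.2%, 36.1% and 35.9% in 4HC, a mean of 15.9 ± 5.5% against 34.1 ± 3.39% (18.2 percentage points higher). Alpha held 58.2%, 62.7% and 59.8% in the controls and 50.5%, 50.5% and 47.8% in 4HC, a mean of 60.3 ± 2.3% against 49.6 ± 1.58% (difference -10.7 points). The 9 predicted models together held 22.1 ± 2.73% in the controls and 14.8 ± 2.78% in 4HC. None of these 3 shares overlapped between the groups, and the share of alpha was lower while its level was higher. Alpha stayed the larger transcript in every sample.

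Shares that do not overlap between the groups were found in 11.6% of 44990 transcripts of genes with several transcripts, and a gain at least as large as that of beta was found in 583 (1.3%) of them. A loss at least as large as that of alpha was found in 1381. The median size of a share difference was 1.56 points. As a share of counts, beta had 95% Wilson intervals of 18.1% to 26.1%, 10.8% to 17.4% and 8.94% to 15.3% in the controls. In 4HC the intervals were 26.6% to 33.8%, 33.0% to 40.4% and 33.7% to 41.0%. No treated interval touched a control interval, but that of control 1 touched neither of the other control intervals. Such a gap thus also occurred between replicates of the same group. The intervals of alpha reached from 47.1% to 61.1% in controls and from 40.9% to 49.8% in 4HC, and those of the groups overlapped. These intervals cover counting error only. They treat the counts as observed, although the counting program (RSEM) divides reads from the shared exons between transcripts by estimation, and the part of that division in the shares was not tested.

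**Figure D3:**
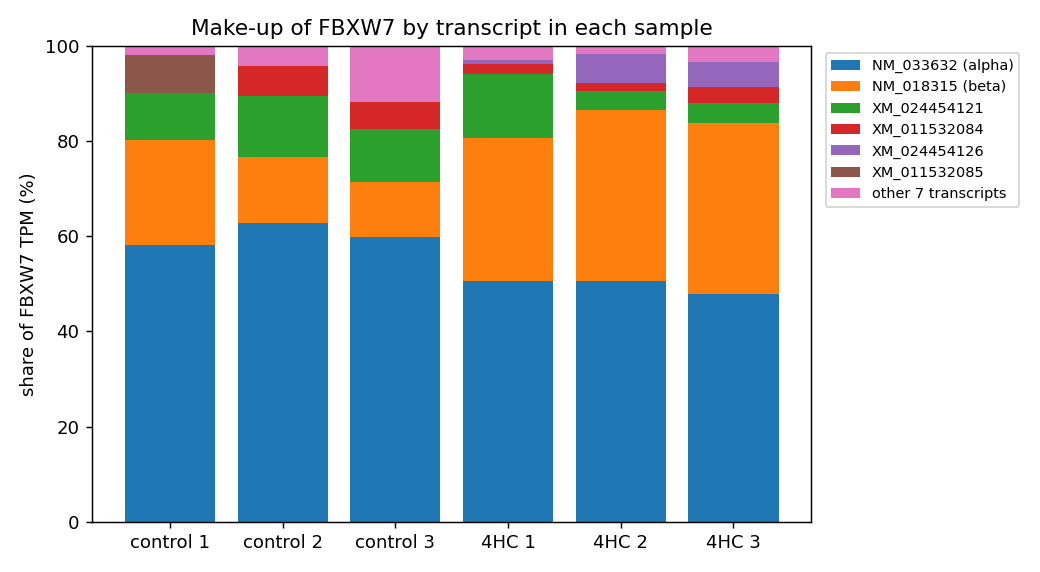
Share of each transcript in the FBXW7 TPM of each sample, in percent, as stacked bars that sum to 100 for 3 control and 3 4HC samples. The beta segment (NM_018315, orange) covers 11.6% to 22.1% in controls and 30.2% to 36.1% in 4HC, and the alpha segment (NM_033632, blue) is shorter in 4HC.

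The predicted models were erratic between replicates. XM_024454121 had 54.5, 73.7 and 60.2 counts in the controls and 116.0, 34.4 and 41.0 in 4HC. The treated sample with 116.0 counts of this model was the one with the fewest beta counts in its group. XM_011532084 had 0, 35.2 and 30.1 counts in the controls and 16.9, 14.8 and 32.1 in 4HC, so both models overlapped between the groups. XM_024454126 was at 0 in all controls and had 6.5, 48.8 and 44.9 counts in 4HC, a mean at least 11.1-fold higher than a floor of 3 counts per library. It was kept only because of its counts in 4HC, so that its separation adds no support. XM_011532085 had 43.5 counts in 1 control and 0 in the other 5 samples.

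The other 7 transcripts (NM_001257069, NM_001349798, XM_011532086, XM_011532087, XM_011532088, XM_024454123 and XM_024454125) had a mean under 10 counts in both groups and did not separate them. In control 3, 27.5 counts were assigned to XM_011532088, which was at 0 in every other sample. In order of share, alpha led in both groups. By share, beta stood above XM_024454121 in each of the 6 samples. In counts, beta stood below it in control 2 (58.4 against 73.7) and control 3 (46.0 against 60.2). The share ranges of the 2 transcripts overlapped among the controls, where XM_024454121 held 11.2 ± 1.56%. They did not overlap in 4HC, where XM_024454121 held 7.22 ± 5.46%. The gamma transcript was not analysed here.

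Of the genes for the ligase that FBXW7 serves, most did not pass the test. Over all genes, edgeR's quasi-likelihood test called 4497 of 12368 (36.4%) at an adjusted p under 0.05, with 19.2% higher and 17.1% lower in 4HC and a median log2 fold change of 0.00. Of 18 SCF subunits and cofactors, 0 rose, 6 fell and 12 did not pass (33.3% called, near the share of all genes), and the median log2 fold change was -0.06. UBE2G1, an E2 enzyme, fell by 0.21 on the log2 scale (adjusted p = 2.66e-05, edgeR), and COPS2, a subunit of the COP9 signalosome that removes NEDD8 from cullins, fell by 0.15 (adjusted p = 0.00122, edgeR). The remaining calls were the E2 enzymes UBE2R2 and UBE2D3, the exchange factor CAND1 and CUL1, with log2 fold changes from -0.13 to -0.08. Scaled by library size alone, or without control replicate 3, only UBE2G1 and COPS2 passed (2 genes). CUL1 had an adjusted p of 0.0243 with edgeR and 0.0790 without 4HC replicate 3. SKP1 (-0.07, adjusted p = 0.122) and RBX1 (0.05, adjusted p = 0.469, edgeR) did not pass, and SKP1 passed without 4HC replicate 3 (-0.11, adjusted p = 0.0264). USP28, which removes ubiquitin from FBXW7 and its substrates, had a log2 fold change of 0.03 (adjusted p = 0.741, edgeR).

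Other F-box genes, the receptors of related ligases, moved in both directions. Of 58 tested, 10 rose and 9 fell (32.8% called, near the 36.4% of all genes tested). The median log2 fold change was -0.02, and 0 of the 58 had a log2 fold change above that of FBXW7. FBXW7 was chosen for its rise in this contrast, so its rank here and in the lists below is a description only. FBXO43, an inhibitor of the anaphase-promoting complex, came nearest with 0.61 (SE 0.135), at 4.07, 4.68 and 5.37 CPM in the controls and 7.24, 7.65 and 6.67 CPM in 4HC. FBXO22 followed with 0.50 (184 ± 4.43 to 261 ± 5.75 CPM) and FBXL5, the iron-sensing receptor for IRP2, with 0.39 (95 ± 1.76 to 124 ± 4.89 CPM). FBXO4 rose by 0.30 (adjusted p = 0.00602, edgeR), which without 4HC replicate 2 became 0.20 (adjusted p = 0.124). FBXO41 fell by 0.34 and FBXL20 by 0.32. In the family of F-box proteins with WD40 repeats, FBXW5 rose by 0.18, although its groups overlapped. BTRC (-0.15, adjusted p = 0.0201), a receptor for phosphorylated beta-catenin and IκB, and FBXW8 (-0.17, adjusted p = 0.0261, edgeR) fell. The call of BTRC was lost without control replicate 2, control replicate 3 or 4HC replicate 2 (adjusted p 0.112, 0.0612 and 0.122) and that of FBXW8 without control replicate 1 or 3 or 4HC replicate 1 or 2 (adjusted p between 0.0685 and 0.0764). FBXW2, FBXW4, FBXW9 and FBXW11 had log2 fold changes of -0.05, 0.08, -0.20 and -0.02 and did not pass, and FBXW9 passed without 4HC replicate 2 (-0.29, adjusted p = 0.0341). FBXW10 and FBXW12 had too few counts for a test.

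**Figure D4:**
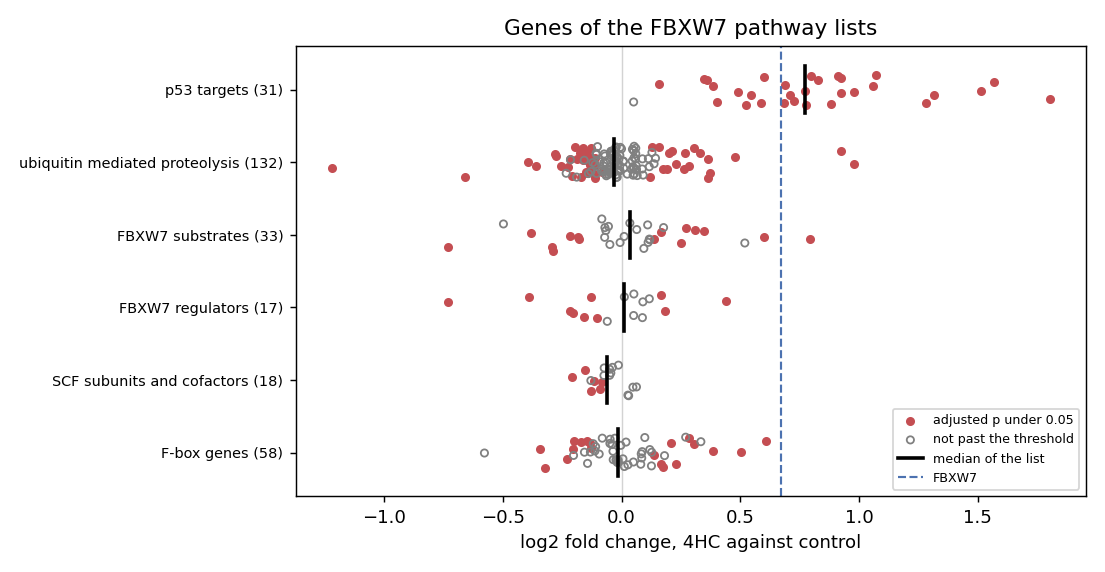
Log2 fold change of 4HC against control for each tested gene of 6 lists, with the number of genes in parentheses. Filled red points passed an adjusted p under 0.05 in edgeR's quasi-likelihood test, open points did not, black bars are list medians and the dashed line is FBXW7 (0.67). The p53 targets lie mostly to the right with a median of 0.77, and the other 5 medians lie between -0.06 and 0.04.

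The mRNAs of proteins known as FBXW7 substrates changed in both directions. The files measure RNA only and not protein. Of 33 tested, 8 rose and 7 fell, with a median log2 fold change of 0.04. The share called was 45.5%, against 36.4% of all genes tested. NOTCH1, a membrane receptor whose cleaved domain is degraded through FBXW7, rose from 13.6, 15.1 and 13 CPM to 24.2, 23.9 and 24.3 CPM. Its log2 fold change was 0.79 (SE 0.076, adjusted p = 1.58e-12, edgeR), and it was the 1 substrate gene with a log2 fold change above that of FBXW7. CCNE2, a cyclin E gene, rose from 22.2, 22.3 and 22.6 CPM to 32.5, 35.3 and 33.8 CPM (log2 fold change 0.60, adjusted p = 3.2e-11, edgeR). The other cyclin E gene, CCNE1, did not pass, with 37.1 ± 0.61 CPM in controls and 40.1 ± 0.776 CPM in 4HC (log2 fold change 0.11, adjusted p = 0.111, edgeR).

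MYC fell from 167, 171 and 172 CPM to 141, 137 and 140 CPM (log2 fold change -0.29, SE 0.037, adjusted p = 9.25e-09, edgeR). The mitotic kinases PLK1 (-0.73) and AURKA (-0.38) also fell, whereas JUNB (0.35) and NOTCH3 (0.31) rose. JUN had 18.6, 18.3 and 14.1 CPM in the controls and 13.2, 11.8 and 16.4 CPM in 4HC, and these groups overlapped. It fell by 0.29 on the log2 scale (adjusted p = 0.0135, edgeR), but did not pass without control replicate 1, control replicate 2 or 4HC replicate 2 (adjusted p 0.0965, 0.0830 and 0.149).

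Among genes that act on FBXW7 or its substrates, 3 rose and 7 fell of 17 tested, with a median log2 fold change of 0.01. The share called was 58.8%, against 36.4% of all genes tested. CDK2, which phosphorylates cyclin E, rose from 91.0 ± 0.907 to 123 ± 3.7 CPM (log2 fold change 0.44), and EZH2, a histone methyltransferase, rose by 0.18. PLK1, which is also in the list of substrates, fell from 116 ± 0.966 to 69.9 ± 4.75 CPM. EBNA1BP2, a nucleolar partner of FBXW7 gamma, fell by 0.39, the phosphatase subunit gene PPP2CA by 0.22 and NPM1 by 0.20. GSK3B, a kinase that phosphorylates many FBXW7 degrons, had 94.7 ± 1.26 CPM in controls and 95.5 ± 1.3 CPM in 4HC (log2 fold change 0.01, adjusted p = 0.853, edgeR).

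FBXW7 beta has been described as a target gene of p53, and other p53 targets were therefore set beside it. Of 31 p53 targets, 30 rose and 0 fell, against 19.2% of all tested genes that rose, and the median log2 fold change was 0.77. The largest increases were in CDKN1A, the CDK inhibitor p21, from 220, 233 and 221 CPM to 800, 786 and 764 CPM (log2 fold change 1.80, SE 0.033), followed by TP53I3 (1.57), PLK3 (1.51), FDXR (1.32), BTG2 (1.28) and TP53INP1 (1.07). PLK2 did not pass (0.05, adjusted p = 0.326, edgeR). At 0.67, the gene-level log2 fold change of FBXW7 lay below 20 of the 31 and below the median of the list. The log2 ratio of the beta transcript alone was 1.79 (1.591 to 2.112 with 1 sample left out), but single transcripts of the other targets were not compared. Whether p53 had a part in the rise of FBXW7 or of beta was not tested. The transcript value is a ratio of group means and the gene values come from the fit, so the scales are close but not identical.

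The wider group annotated by the deposited table to ubiquitin mediated proteolysis showed no common direction. Of 132 tested genes 19 rose and 29 fell, with a median log2 fold change of -0.03. The share called was 36.4%, the same as over all genes tested. Only MDM2 (0.98), the ligase for p53, and DDB2 (0.92), which recognizes damaged DNA, had larger log2 fold changes than FBXW7. BRCA1 (0.48) and TRIM32 (0.37) rose, and CDC20 (-0.66), an activator of the anaphase-promoting complex, and RHOBTB1 (-0.40) fell.

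The genes around FBXW7 on chromosome 4 moved in both directions. No tested gene overlaps it. Of the 5 nearest tested genes on each side, 1 rose and 3 fell (40.0% called, against 36.4% of all genes tested). The nearest, ARFIP1, lies 243.1 kb away and had 44.5 ± 2.01 CPM in controls and 43.7 ± 1.15 CPM in 4HC (log2 fold change -0.03, adjusted p = 0.75, edgeR). GATB, 559.3 kb away on the other side, had a log2 fold change of 0.15 (adjusted p = 0.0553, edgeR) and passed without control replicate 2 (0.20, adjusted p = 0.0154). MND1, a meiotic recombination gene 807.8 kb away, rose by 0.55 (12.5 ± 1.04 to 18.3 ± 0.844 CPM). LRBA (-0.14), PLRG1 (-0.13) and SH3D19 (-0.20) fell. The call of SH3D19 was lost without control replicate 2 or 4HC replicate 1 (adjusted p 0.0558 and 0.0745). RPS3A, TRIM2, TMEM131L and DCLK2 had log2 fold changes of 0.01, -0.30, 0.02 and 0.14 and did not pass.

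**Figure D5:**
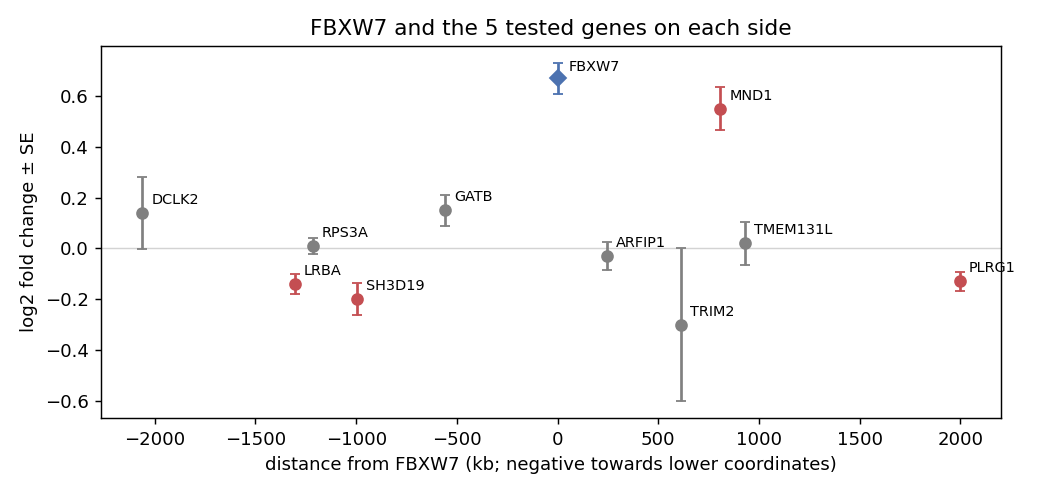
Log2 fold change with its SE for FBXW7 (blue diamond) and the 5 nearest tested genes on each side, against distance from FBXW7 in kb. Red points passed an adjusted p under 0.05 in edgeR's quasi-likelihood test and grey points did not. The closest genes, ARFIP1 and GATB, lie at -0.03 and 0.15, and MND1 at 807.8 kb is the only neighbour that rose.

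The genes whose pattern over the 6 samples was most like that of FBXW7 were ranked by the root mean square difference of centred log2 CPM, over 10374 genes that reached 5 CPM in one group or both. The 5 closest were ZGRF1 and IQGAP3 (0.028 each), RAD54L (0.033), RRM2B (0.04) and TUBB6 (0.047), against a median of 0.345. RAD54L takes part in homologous recombination, and RRM2B, a p53 target in the list above, is a subunit of ribonucleotide reductase. Their log2 fold changes were between 0.61 and 0.71, as the choice by likeness to FBXW7 fixes.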

How the data were processed

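Total RNA of 6 COV434 samples had been sequenced, 3 per group. Per the labels, reads were filtered with SOAPnuke, and the submitters' processing notes name HISAT2, Bowtie2, RSEM 1.3.1, DESeq2 1.4.5 and GRCh38.p13. The authors deposited expected counts, TPM and FPKM for genes and transcripts. FPKM, the deposited log2 fold changes, p-values and q-values of the authors' own comparison and a second gene table were not used. Among gene-level values, 85.5% were whole numbers.

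Expected counts were rounded and 12368 genes that passed filterByExpr were tested with edgeR 4.0.16 (R 4.3.3): TMM, quasi-likelihood test, condition as the only term, Benjamini-Hochberg adjustment, called at an adjusted p under 0.05. Transcript CPM used unrounded counts and the same scaling. In simulated counts of 12287 genes with 199 changed, 78% of those changed by 0.5 (log2) and 98% of those changed by 1 were recovered. A test of 3 samples against 3 by exact permutation cannot go below p = 0.1. Of the 13 transcripts, 6 had a mean of at least 10 counts in either group.

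The members and lists were chosen with earlier results of these data known, and memberships of ubiquitin mediated proteolysis and cyclin E destruction came from annotation columns. Named were FBXW7, its transcripts, the next hub gene, up to 6 genes per list with the largest called change and at least 5 CPM in either group, SKP1, CUL1, RBX1, the FBXW family, MYC, CCNE1, JUN, NOTCH1, all neighbours and the 5 most similar profiles. GSK3B, USP28 and PLK2 were named after their values were seen. Some genes that the rule covers are not reported here. Alternatives were DESeq2 1.42.0, other scalings and filters, a replicate block, deposited TPM, and each sample left out.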

Additional observations from a re-analysis of the deposited data

How the results depend on the processing

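The direction of FBXW7 (log2 fold change 0.628 to 0.694 with 1 sample left out at a time), of the beta transcript (log2 ratio 1.591 to 2.112, share 16.07 to 21.3 points higher) and of the alpha transcript (log2 ratio 0.369 to 0.467, share difference -11.7 to -9.43 points) held under each alternative run for them. With only transcripts of at least 10 mean counts, the share difference of alpha was -13.24 points, since fewer transcripts then share the total. Of the SCF genes, 2 were called with library size as the only scaling and 2 to 5 with 1 sample left out, against 6. Leaving out 1 sample gave 3622 to 4246 genes called in all, and 13 to 19 F-box genes, 12 to 17 substrates, 7 to 10 regulators, 30 p53 targets, 38 to 48 ubiquitin genes and 3 to 4 neighbours. DESeq2 called 3178 genes. Of the named genes' values under alternatives, 796 kept their side of the threshold, 40 lost a call and 4 gained one. The calls lost with DESeq2 were those of BTRC, FBXO4, FBXW8, JUN, SH3D19 and UBE2R2. Same-numbered samples did not deviate together (correlations 0.009, 0.069 and 0.03), and the labels do not say whether they were handled as pairs. With the replicate block 4213 genes were called, and FBXW7 had a log2 fold change of 0.668. The low counts of single FBXW7 transcripts limited what their shares can show.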

Other observations

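In the BioCarta group for cyclin E destruction, an annotation in the deposited gene table that was looked at only after its values could be seen, 3 genes rose and 1 fell of 8 tested besides FBXW7 (50% called, against 36.4% of all genes tested, and a median log2 fold change of 0.09). CDK2 (0.44), RB1 (0.29), the retinoblastoma protein gene, and E2F1 (0.21), a transcription factor of S-phase genes, rose, and CUL1 (-0.12) fell. CCNE1, SKP1, CDC34 and the E2F partner gene TFDP1 did not pass an adjusted p under 0.05 in edgeR's quasi-likelihood test. In control replicate 1, where the beta share was the highest of the controls (22.1%), XM_011532084 was at 0 and XM_011532085 had 43.5 counts, a distribution seen in no other sample.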
